A study of Mus musculus with 10 samples.

Results

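The CD300 receptor family was described in CT26 tumors through 7 genes, Cd300a, Cd300c2, Cd300e, Cd300lb, Cd300ld, Cd300lf and Cd300lg. They are the rows of the deposited count table that carry one of these gene names, 7 of 36009 genes in all. CT26 is a colon carcinoma cell line of the mouse, here grown under the skin of wild-type (WT) female BALB/c mice. Each of the 10 samples was polyA RNA from the piece of 1 tumor that was removed at surgery, before any treatment, and all mice then received a hydrogel loaded with poly(I:C), a synthetic double-stranded RNA, on the tumor left behind. The 6 tumors labelled responder came from mice whose tumor later regressed completely, and the 4 labelled non-responder from mice whose tumor later grew without delay. The groups therefore differed in a later outcome and not in treatment, genotype, strain or sex, and the labels give no age and no batch. The 7 genes were picked with this comparison already known, so their levels and fold changes are given as a description, without a test.

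CD300 proteins are surface receptors with a single immunoglobulin-like domain, found mainly on myeloid cells such as monocytes, macrophages, neutrophils and mast cells, where several of them bind lipids that dying or activated cells expose. They form a paired family. Cd300a and Cd300lf carry inhibitory motifs in long cytoplasmic tails and recruit phosphatases, whereas Cd300c2, Cd300e, Cd300lb and Cd300ld have short tails and signal through adaptor chains such as Tyrobp (DAP12) and Fcer1g. Cd300lg, also called nepmucin, is the exception, since it is known from endothelial cells, where it binds L-selectin.

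Of these genes, 6 lie side by side. On the mouse genome build GRCm38 the cluster runs from Cd300a (chr11:114890041-114904654, plus strand) through Cd300lb (chr11:114922781-114934386), Cd300ld (chr11:114982274-114989922), Cd300c2 (chr11:114996721-115001880) and Cd300e (chr11:115051917-115062177) to Cd300lf (chr11:115116214-115133992), the last 5 on the minus strand. Cd300lg lies elsewhere on the same chromosome (chr11:102041509-102055620, plus strand). The identifiers in the count table are ENSMUSG00000034652 for Cd300a, ENSMUSG00000044811 for Cd300c2, ENSMUSG00000048498 for Cd300e, ENSMUSG00000063193 for Cd300lb, ENSMUSG00000034641 for Cd300ld, ENSMUSG00000047798 for Cd300lf and ENSMUSG00000017309 for Cd300lg.

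The tumors were sequenced to between 23374649 and 38042544 estimated counts (29065126 to 38042544 in responders, 23374649 to 32986456 in non-responders). Of 36009 genes, 16041 passed the filter on low counts, all 7 CD300 members among them. In edgeR's quasi-likelihood test, 756 genes were higher and 537 lower in responders at an adjusted p under 0.05, together 8.06% of the genes tested. The label colorectal carcinoma was checked against epithelial markers. Krt8, Krt18, Vil1 and Epcam stayed below 1 CPM (counts scaled to the size of each library) in each of the 10 tumors, while Krt20 ranged from 12.7 to 75.3 CPM and Cdh1 from 2.63 to 7.03 CPM.

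Of the 7 members, 6 were estimated higher in responders and 1, Cd300lb, lower. The median log2 fold change of the members was 0.69, beside -0.01 over all genes tested. Cd300a, Cd300e and Cd300lf were among the genes called higher, 3 of 7 beside 4.71% of all genes called in that direction, and 0 members were called lower, beside 3.35%. In 4 members (Cd300a, Cd300e, Cd300ld, Cd300lf) each responder exceeded each non-responder, beside 5.84% of all genes, or 10.4% when both directions are counted. Nothing can be read from these shares, because the members were chosen on this comparison. Calls also depended on single tumors, over all genes as among the members. In the edgeR fits without responder 1, 2, 3, 5 or 6 or without non-responder 1, 3 or 4, 0 members were called. Over all genes these fits called, in the same order, 553, 244, 17, 412, 735, 16, 366 and 0, of 15925 to 16285 tested. With all tumors 1293 of 16041 were called. In each of the fits with 0 members called, 5 to 7 of the 7 had an unadjusted p under 0.05. Without responder 2 and without non-responder 4 this included 1 member lower in responders, Cd300lb. Over all genes the count in either direction ran from 3654 of 16285 (without non-responder 1) to 4459 of 15944 (without responder 6). As the members were chosen on this comparison, nothing can be read from their counts either. Without responder 4, 4 members were called, beside 1619 of 15985 genes over all. Without non-responder 2, 5 members were called, beside 1897 of 16238 genes over all. In bulk tumor RNA, fewer cells of a type and less RNA per cell cannot be told apart.

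**Figure D1:**
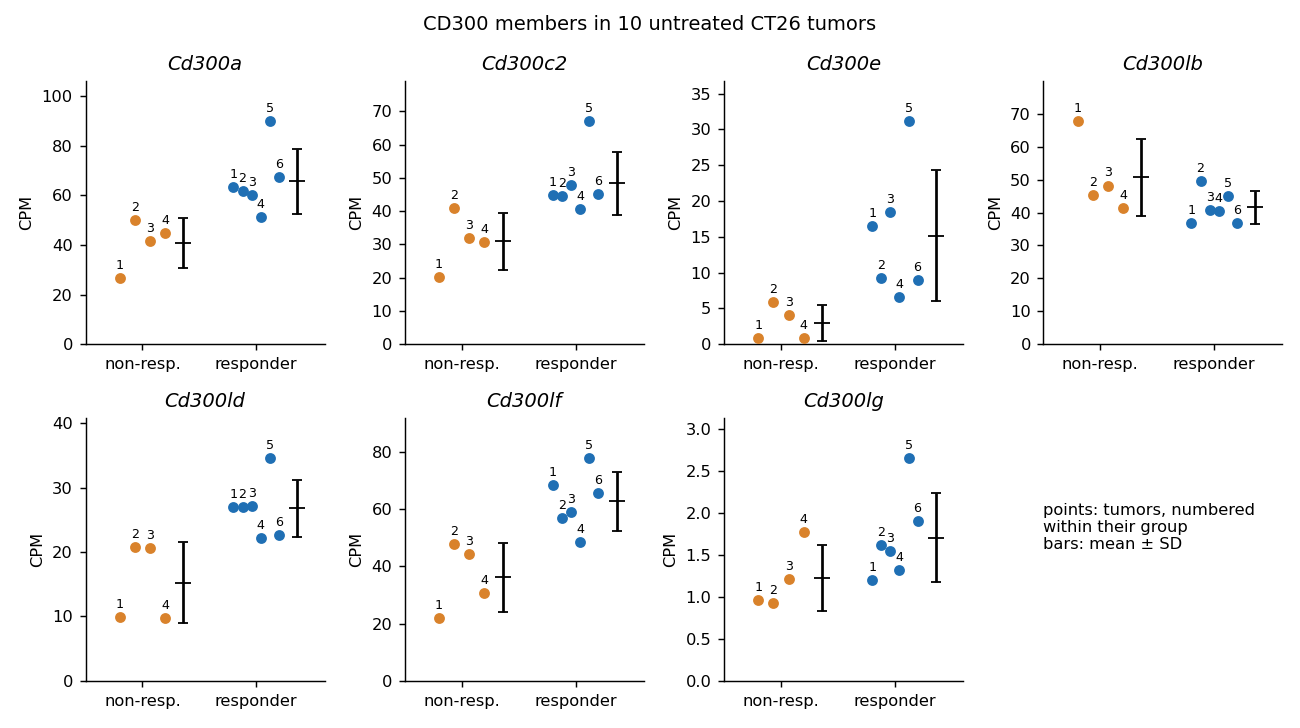
Level of each CD300 member in CPM (vertical axis, from 0) in the 4 non-responder and 6 responder tumors, with points numbered by tumor within the group and bars showing the mean ± SD. In Cd300a, Cd300e, Cd300ld and Cd300lf all responders sit above all non-responders, and in Cd300lb non-responder 1 is the highest tumor at 67.8 CPM.

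Cd300a and Cd300lf are the inhibitory receptors of the set. Cd300a binds phosphatidylserine and phosphatidylethanolamine on dying cells. Its level in responders ran from 51.2 CPM over a median of 62.5 CPM to 89.8 CPM. In non-responders 1 to 4 it was 26.8, 49.9, 41.8 and 44.6 CPM. The groups did not overlap, but the lowest responder and non-responder 2 lay close together. The means were 65.6 ± 13.0 CPM (SD, n = 6) and 40.8 ± 9.90 CPM (SD, n = 4), a log2 fold change of 0.69 with an SE of 0.18. Leaving out 1 tumor at a time moved it between 0.54 and 0.80.

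Cd300lf, a receptor for ceramide and phosphatidylserine that also associates with the interleukin-4 receptor, showed nearly the same pattern. Responders spanned 48.6 to 77.8 CPM with a median of 62.1 CPM, and non-responders 1 to 4 had 22.0, 47.9, 44.2 and 30.6 CPM. Again the groups did not overlap, with responder 4 just above non-responder 2. The log2 fold change was 0.79 with an SE of 0.20, from means of 62.6 ± 10.2 CPM (SD, n = 6) and 36.2 ± 12.0 CPM (SD, n = 4). Part of the Cd300lf locus is covered on the opposite strand by Rab37, which was read at 1.94 to 3.90 CPM, and whether the counting used strand is not given in the sources used here.

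Among the activating receptors, Cd300e differed the most. It is known from monocytes, in particular the patrolling kind, and binds sphingomyelin. Responders had 6.63 to 31.1 CPM with a median of 12.9 CPM, and the non-responders had 0.808, 5.90, 4.08 and 0.905 CPM. Non-responders 1 and 4, with 20 and 30 reads, were almost without the transcript, while the responders were spread over a range wider than the gap between the groups and the lowest of them, responder 4 with 201 reads, lay just above non-responder 2 with 158. The log2 fold change was 2.39 with an SE of 0.61, the largest of the family, and moved between 2.05 without responder 5 and 3.03 without non-responder 2.

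Cd300ld, an activating receptor known from neutrophils, had 22.2 to 34.6 CPM in responders with a median of 27.0 CPM. The non-responders fell into a higher and a lower pair, with 20.8 and 20.7 CPM in non-responders 2 and 3 and 9.85 and 9.71 CPM in non-responders 1 and 4. The groups did not overlap, although the lowest responder was close to the higher pair. The log2 fold change was 0.82 with an SE of 0.23 and a range of 0.65 to 1.01 when single tumors were left out.

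Cd300c2, also known as MAIR-II, pairs with Tyrobp and Fcer1g. Responders spanned 40.6 to 67.1 CPM with a median of 45.1 CPM, and non-responders 1 to 4 had 20.1, 40.9, 32.0 and 30.7 CPM. The groups overlapped, since non-responder 2 exceeded responder 4, and the other 5 responders exceeded each non-responder. The log2 fold change was 0.65 with an SE of 0.18.

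Cd300lb departed from the rest. This receptor signals through Tyrobp, cooperates with the lipopolysaccharide receptor Tlr4 and can bind the phosphatidylserine receptor Havcr1. Its level was 36.7 to 49.6 CPM in responders with a median of 40.6 CPM, and 67.8, 45.3, 48.2 and 41.3 CPM in non-responders 1 to 4. The groups overlapped. The log2 fold change was -0.28 with an SE of 0.13, and without non-responder 1, the tumor with the highest level, it came to -0.11. A pseudogene on the opposite strand, Gm11699, overlaps the gene and was read at 0.26 to 0.809 CPM.

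Cd300lg had the lowest median CPM of the members, although Cd300e had fewer CPM in non-responders 1 and 4. Responders had 1.20 to 2.66 CPM with a median of 1.59 CPM, and the non-responders 0.969, 0.933, 1.21 and 1.78 CPM. No more than 2 of 6 responders exceeded non-responder 4, and the log2 fold change of 0.47 had an SE of 0.26. The endothelial markers (8 genes) summed to 103.0 to 161.5 CPM in responders and 86.0 to 127.5 CPM in non-responders.

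**Figure D2:**
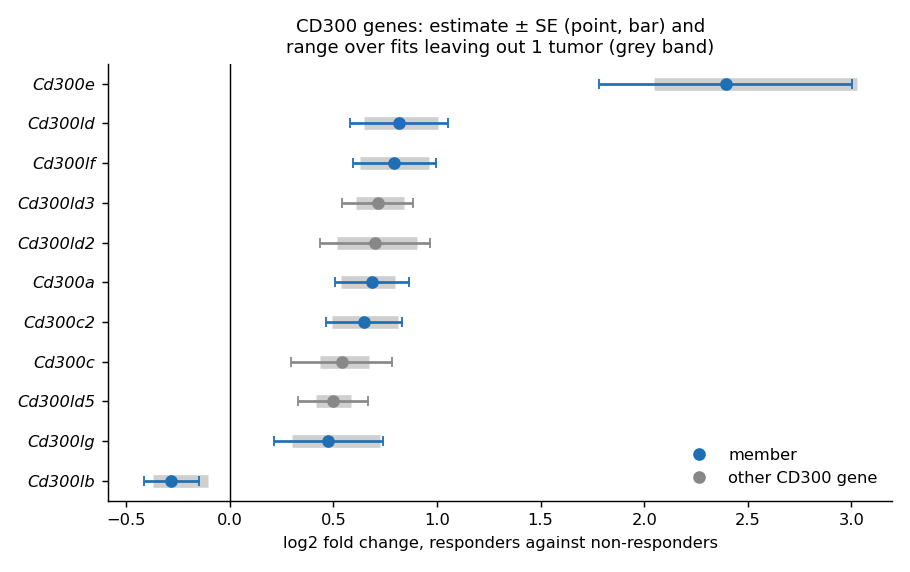
Log2 fold change of responders against non-responders (horizontal axis) for the 7 members and the other tested CD300 genes, with bars of 1 SE and grey bands for the range over fits that leave out 1 tumor. Cd300e stands at 2.39, Cd300lb alone lies below 0 at -0.28, and the other members lie between 0.47 and 0.82.

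Levels of different genes were compared per kb of exon. Cd300c2, with the shortest exons, had the highest median over the 10 tumors at 33.6 CPM per kb. It was followed by Cd300lb with 14.8, Cd300a with 11.8, Cd300lf with 10.2, Cd300ld with 8.47, Cd300e with 3.72 and Cd300lg with 0.524 CPM per kb. Within responders, neighbours from Cd300lb (14.3 ± 1.70, SD, n = 6) over Cd300a (13.9 ± 2.74), Cd300lf (12.2 ± 1.98) and Cd300ld (10.1 ± 1.69) to Cd300e (7.26 ± 4.36 CPM per kb) had overlapping spreads between tumors, while Cd300c2 (38.0 ± 7.40) and Cd300lg (0.624 ± 0.192 CPM per kb) stood apart from their neighbours. Within tumors, on this length, Cd300a exceeded Cd300lf and Cd300lf exceeded Cd300ld per kb in 6 of 6 responders and 4 of 4 non-responders. Cd300lb exceeded Cd300a in 3 of 6 responders but 4 of 4 non-responders, and Cd300ld exceeded Cd300e in 5 of 6 responders. With the longest transcript as the length, the median of Cd300lf (13.4 CPM per kb) moved above that of Cd300a (12.0 CPM per kb). Within tumors their order then turned in each responder, as in responder 1 (17.4 against 13.65 CPM per kb). It also turned in non-responders 2 (12.18 against 10.74) and 3 (11.24 against 8.989). In non-responders 1 (5.61 against 5.77) and 4 (7.784 against 9.604) it did not. The order of these 2 genes thus depended on the length used.

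The make-up of the 7 members is given as a description. The share of Cd300lb falls when the other members, chosen on this comparison, are higher. The sum of the 7 also leaves out Cd300ld3 and other CD300 genes. Per kb, Cd300c2 ranked first in all 6 responders and in 3 of 4 non-responders, and Cd300lb ranked first in non-responder 1. As a share of the summed CPM per kb of the 7 members, Cd300lb made up 11.8% to 18.6% in responders (15.1% ± 2.60, SD, n = 6) and 43.5%, 19.8%, 23.9% and 24.3% in non-responders 1 to 4. In this share all 6 responders were below all non-responders, although the CPM of Cd300lb overlapped between the groups. Cd300e went the other way, with a share of 4.08% to 11.4% in responders and 0.724%, 3.60%, 2.82% and 0.742% in the non-responders. The share of Cd300c2 was 39.4% ± 1.14 (SD, n = 6) in responders and 37.0% ± 5.47 (SD, n = 4) in non-responders, with overlap.

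**Figure D3:**
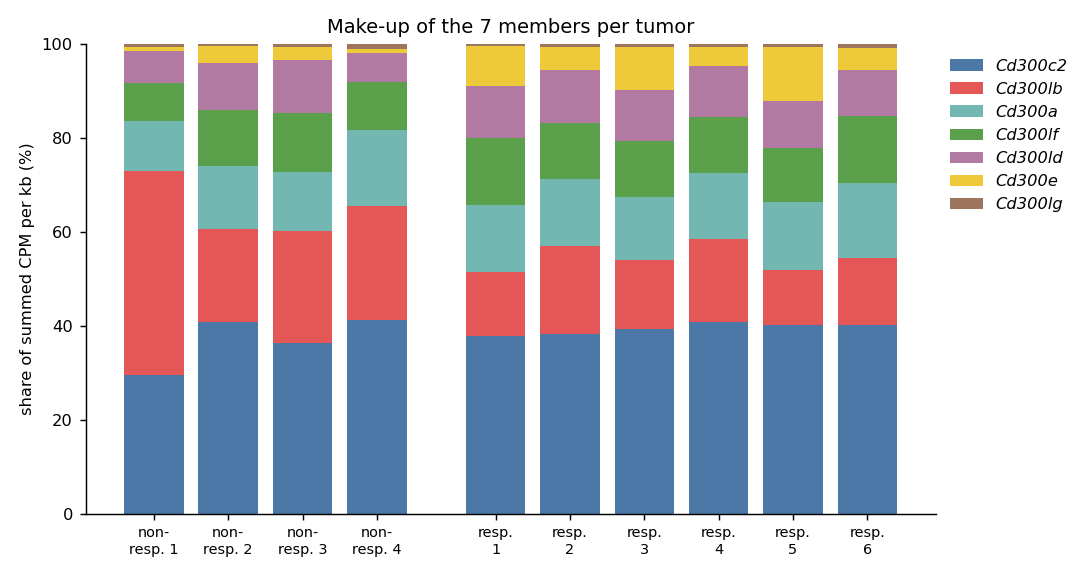
Share of each member in the summed CPM per kb of the 7 members (vertical axis, percent) in each of the 10 tumors, one stacked bar per tumor. The Cd300lb segment is largest in non-responder 1 at 43.5% and lies between 11.8% and 18.6% in the responders, and the Cd300e segment reaches 11.4% in responder 5.

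Inhibitory and activating members were then summed. Cd300a and Cd300lf together came to 26.0 ± 4.63 CPM per kb (SD, n = 6) in responders and 15.6 ± 4.21 CPM per kb (SD, n = 4) in non-responders. The activating members Cd300c2, Cd300e, Cd300lb and Cd300ld came to 69.6 ± 13.8 and 48.8 ± 7.53 CPM per kb. The ratio of inhibitory to activating transcripts was 0.342 to 0.441 in responders and 0.231, 0.340, 0.338 and 0.362 in non-responders, which overlapped. Its means were 0.376 ± 0.0386 (SD, n = 6) and 0.318 ± 0.0592 (SD, n = 4). Without Cd300lb the ratio was 0.476 ± 0.0502 (SD, n = 6) and 0.502 ± 0.0329 (SD, n = 4). With Cd300lb in the sum, non-responder 1 (0.231) lay far below the other non-responders (0.338 to 0.362). With Cd300lb left out, the mean was slightly lower in responders and the groups overlapped. The sums hold members only and leave out other CD300 genes, so the ratio does not cover the whole family. Among those left out were Cd300ld3, at 71.45 CPM per kb in responders and 43.63 in non-responders, and Cd300ld5, at 26.31 and 18.67.

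Cell type markers moved with these members. Ptprc (CD45), the marker of all leukocytes, was 326.2 to 499.3 CPM in responders and 181.1 to 307.4 CPM in non-responders (log2 fold change 0.60, adjusted p = 0.0413). Of 9 macrophage markers 7 rose, beside 4.71% of all genes, and the sum of the 9 was 3035 to 4529 CPM against 2107 to 2838 CPM, with no overlap. Mrc1 was estimated lower, at 410.6 CPM in responders and 449.4 CPM in non-responders (adjusted p = 0.4945 in edgeR). Monocyte markers gave 3 of 10 higher, namely Ly6c2, Itgam and Treml4, with sums of 5453 to 7541 and 5878 to 8830 CPM that were dominated by Fn1. Of the genes linked to patrolling monocytes, Treml4 rose from 9.60 to 16.0 CPM (adjusted p = 0.0401), while Cx3cr1 stood at 66.9 CPM in responders and 56.1 CPM in non-responders (adjusted p = 0.276), Ace at 87.9 and 118.2 CPM (adjusted p = 0.0834) and Nr4a1 at 24.5 and 23.0 CPM (adjusted p = 0.847), all in edgeR.

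The remaining lists were mostly low. Mast cell markers (2 of 7 higher) summed to 51.1 to 178.8 CPM in responders and 27.4 to 59.1 CPM in non-responders, and dendritic cell markers (1 of 8 higher) to 273.4 to 359.6 and 143.5 to 307.1 CPM. Neutrophil markers summed to 76.0 to 155.7 and 60.4 to 127.0 CPM, and the neutrophil marker Ly6g had under 3 counts in each tumor. Lymphocyte markers summed to 126.2 to 289.9 and 74.5 to 139.5 CPM, and adipocyte markers to 15.7 to 52.1 and 8.54 to 19.2 CPM. In edgeR 0 of 6 neutrophil, 8 endothelial, 9 lymphocyte and 4 adipocyte markers passed, with 1, 0, 7 and 4 of them at an unadjusted p under 0.05, and DESeq2 called 0, 0, 6 and 4. Over all genes, edgeR called 4.71% higher and had 4665 of 16041 at an unadjusted p under 0.05, and DESeq2 called 17.6%. Skeletal muscle markers (2 of 5 higher) summed to 347.6 to 1122 and 307.9 to 401.7 CPM. The part of these cell types in the members' differences was not tested.

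Set against Ptprc in the same tumor, most of the differences became small. Per 1000 CPM of Ptprc, Cd300a was at 172.4 ± 17.9 (SD, n = 6) and 162.6 ± 20.2 (SD, n = 4) and Cd300c2 at 127.0 ± 6.95 and 122.4 ± 11.5 CPM, and both overlapped between groups. Cd300e still separated the groups. Cd300lb, whose groups overlapped in CPM, separated them in the opposite direction only after this scaling, and Ptprc itself was higher in responders. Cd300e had 20.3 to 62.4 CPM per 1000 CPM of Ptprc in responders against 4.46, 19.2, 14.5 and 3.88 in the non-responders, and Cd300lb had 90.2 to 135.6 against 374.1, 147.4, 171.7 and 177.2. The mean log2 difference relative to Ptprc was 2.07 for Cd300e, -0.88 for Cd300lb, and between -0.14 and 0.28 for the other 5 members. Relative to the summed macrophage markers it was 2.19 for Cd300e, -0.77 for Cd300lb and between -0.02 and 0.40 for the rest. Both scalings were chosen after the data were seen.

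The members also varied together inside the groups. After each tumor's log2 CPM was set against the mean of its own group, Pearson's r over the 10 tumors was 0.955 for Cd300a with Cd300c2, 0.948 for Cd300e with Cd300ld and 0.893 for Cd300e with Cd300lf, with Spearman's rho of 0.915, 0.964 and 0.915. Leaving out the 2 tumors farthest from the median of the first gene gave r of 0.865, 0.919 and 0.823. For Cd300a with Cd300e and with Cd300ld the same step took r from 0.703 to 0.488 and from 0.622 to 0.362, so these values rested largely on the tumors at the ends. Cd300lb had r between -0.499 and -0.114 with the other 6 members, but among the 6 responders alone r lay between -0.082 and 0.493. Without the 2 tumors farthest in the partner gene, it was -0.435 with Cd300a, -0.256 with Cd300c2 and -0.275 with Cd300e. Without the 2 tumors farthest in Cd300lb itself, it was 0.541 with Cd300ld, 0.222 with Cd300lf and 0.158 with Cd300lg. The tumors left out were thus chosen on different genes, so the signs of these values cannot be compared between partners. The 21 pairs are a description without p, and all points share the tumor's library and its scaling.

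**Figure D4:**
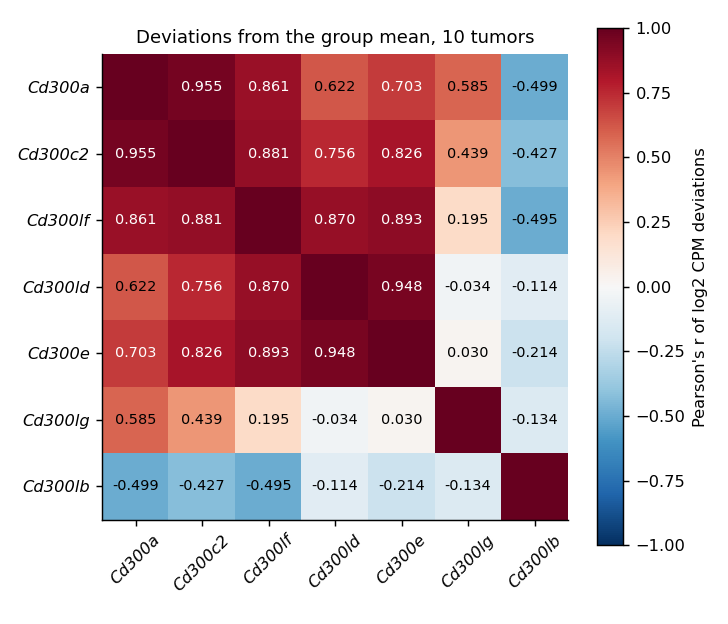
Pearson's r between members (colour scale from -1 to 1, value in each cell) for deviations of log2 CPM from the group mean over the 10 tumors. Cd300a, Cd300c2, Cd300lf, Cd300ld and Cd300e form a block with r of 0.622 to 0.955, while the Cd300lb row is below 0 throughout.

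For each member, the 3 other genes with the highest Pearson's r of log2 CPM over the 10 tumors were listed, out of genes that averaged at least 1 CPM. Cd300a was followed most closely by Irag2 (r = 0.991), Ddhd1 (0.989) and the Fc receptor gene Fcgr3 (0.987). Cd300e was followed by Sh2d1b1 (0.995), which encodes an adaptor of SLAM family receptors, by Cd300ld3 (0.992) and by Cd72 (0.990), and Cd300ld by genes that included Gk (0.986) and A930011G23Rik (0.982). For Cd300lf the list held the glutamate transporter gene Slc1a3 (0.994), Map3k1 (0.993) and Efna5 (0.991), and for Cd300c2 it held Tafazzin (0.990), Trpv2 (0.989) and Laptm4a (0.988). The closest genes to Cd300lb were Lrrfip2 (0.929), Nectin1 (0.920) and Dgat1 (0.911), and to Cd300lg Relt (0.923), Tbc1d22b (0.921) and Cox18 (0.920), lower than for the other 5. These genes are the top of a ranking over all genes, so a high r was given by the choice.

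The cluster holds further CD300 genes outside the 7. Cd300ld3 was the highest per length of all, at a median of 58.7 CPM per kb, and had 48.1 to 79.1 CPM in responders with a median of 61.1 CPM against 28.2, 46.5, 44.4 and 29.6 CPM in non-responders 1 to 4. The groups did not overlap and the gene passed the test, with a log2 fold change of 0.71, an SE of 0.17 and an adjusted p of 0.0372 in edgeR. Cd300ld5 (22.4 ± 5.40 CPM, SD, n = 6, against 15.9 ± 1.91 CPM, SD, n = 4) did not pass in edgeR, at 0.50 with an SE of 0.17 and an adjusted p of 0.0858, but did in DESeq2 (adjusted p = 0.0310). Cd300ld2, at 1.96 and 1.21 CPM, and Cd300c, at 0.438 and 0.302 CPM, had adjusted p of 0.109 and 0.190. Cd300ld4 had 0 counts in all 10 tumors. The call of Cd300ld3 held in 2 of 10 fits that left out 1 tumor.

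These Cd300ld genes are near copies, which is why their starts are shown. Of the 31-base words in the transcripts of Cd300ld5, 100% occur in another CD300 gene, and for Cd300ld4 and Cd300ld3 the shares are 96.2% and 84.1%. For the members the share was 12.3% in Cd300c2 (mostly with Cd300a), 5.6% in Cd300ld (mostly with Cd300lf), 2.77% in Cd300lf, 2.71% in Cd300a and 0% in Cd300e, Cd300lb and Cd300lg. Over the whole coding sequence, Cd300ld3 and Cd300ld5 agree in 732 of 735 aligned bases (99.6%), Cd300ld4 and Cd300ld5 in 99.9%, and Cd300ld and Cd300ld3 in 86.6%. The counts of Cd300ld3, Cd300ld4 and Cd300ld5 are therefore uncertain as a split between them, the 0 of Cd300ld4 included. The first 90 coding bases follow, 5′ to 3′ on the coding strand from the GENCODE annotation of GRCm38, with each base that differs from Cd300ld3 in capitals.
Cd300ld3: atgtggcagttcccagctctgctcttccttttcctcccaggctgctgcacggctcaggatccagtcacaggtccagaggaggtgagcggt
Cd300ld5: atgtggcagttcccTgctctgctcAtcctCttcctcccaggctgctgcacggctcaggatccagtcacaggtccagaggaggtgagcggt
Cd300ld: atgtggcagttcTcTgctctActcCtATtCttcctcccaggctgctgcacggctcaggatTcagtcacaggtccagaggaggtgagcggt
Cd300ld5 differs from Cd300ld3 at 3 of these 90 bases and the member Cd300ld at 8. Cd300ld4 has the same 90 bases as Cd300ld5.

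Sequence before the start was read for the members, as Cd300lb differed from the other members in the direction of its estimate. Promoter windows of 250 bases before the gene start were taken from RefSeq (GRCm38.p6), where 6 of 7 members had one and Cd300lg is not listed, and each was searched over all 250 bases. The core letters GAGGAA, on either strand, of sites for PU.1, a transcription factor of myeloid cells, occurred in 23.3% of 32851 windows. Among the members they were in the windows of Cd300a, Cd300c2, Cd300ld and Cd300lf, at 39, 80, 143 and 43 bases before the RefSeq start. The windows of Cd300e and Cd300lb did not hold these letters. For Cd300e, 112 of the 250 bases searched lie before the start of the GENCODE gene. Cd300lf and Cd300ld are shown with the match in capitals and Cd300lb without one, each 5′ to 3′ on the minus strand. Where the GENCODE gene starts inside the RefSeq window the printed part stops before it, which leaves 214 bases for Cd300ld and 235 for Cd300lb.
Cd300lf, chr11:115133993-115134242: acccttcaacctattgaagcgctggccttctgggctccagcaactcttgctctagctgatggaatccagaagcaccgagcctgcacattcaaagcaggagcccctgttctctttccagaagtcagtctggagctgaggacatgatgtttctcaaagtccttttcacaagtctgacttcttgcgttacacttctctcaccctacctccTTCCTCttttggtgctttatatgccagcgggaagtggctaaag
Cd300ld, chr11:114989923-114990136: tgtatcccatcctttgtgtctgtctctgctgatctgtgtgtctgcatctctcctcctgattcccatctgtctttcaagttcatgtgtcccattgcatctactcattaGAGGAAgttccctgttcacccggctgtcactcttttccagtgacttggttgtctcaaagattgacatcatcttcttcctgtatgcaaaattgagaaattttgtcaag
Cd300lb, chr11:114934387-114934621: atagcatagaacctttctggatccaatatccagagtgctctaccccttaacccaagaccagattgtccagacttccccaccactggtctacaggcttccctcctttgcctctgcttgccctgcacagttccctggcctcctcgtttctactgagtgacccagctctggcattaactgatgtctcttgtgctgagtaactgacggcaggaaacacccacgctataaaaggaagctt
The other 4 patterns were searched on both strands. The interferon-stimulated response element (2.98% of all windows) and the AP-1 pattern TGANTCA (6.75%) were in none of the 6, the gamma-activated pattern TTCNNNGAA (7.02%) was in Cd300e and the C/EBP pattern TTGCNNAA (9.56%) in Cd300a. Of these patterns TTCNNNGAA alone can hold GAGGAA within it, and no member had both. A match is only an occurrence of the letters, and the patterns were chosen after the levels were known.

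The neighbours of the cluster were read in the same fit. Of 22 other genes within 250 kb of its ends 14 were tested, and 0 passed in edgeR, beside 8.06% of all genes. DESeq2 made 3 calls, beside 17.6% of all genes it gave an adjusted p. At an unadjusted p under 0.05 in edgeR there were 4 neighbours, beside 4665 of 16041 genes over all. The smallest p belonged to Cdr2l, with a log2 fold change of -0.33 (SE 0.09, adjusted p = 0.0528), and to the kinesin gene Kif19a with 0.55 (SE 0.19, adjusted p = 0.0814). The median log2 fold change of the 14 was 0.10. Rab37, which shares its locus with Cd300lf, had 0.36 (adjusted p = 0.231).

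**Figure D5:**
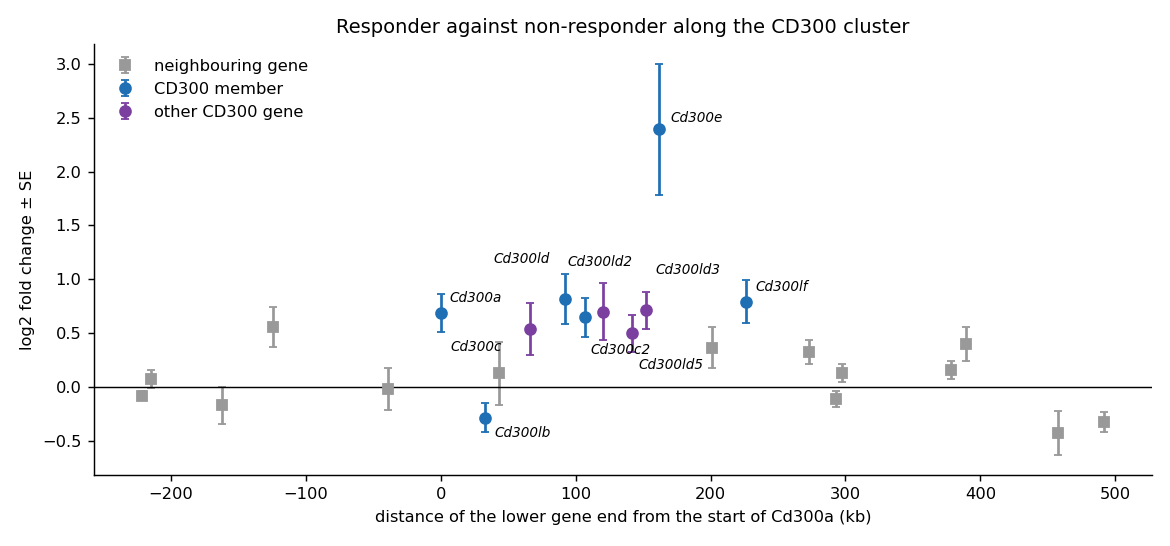
Log2 fold change of responders against non-responders with bars of 1 SE (vertical axis) for tested genes, by distance in kb of the gene's lower end from the start of Cd300a (horizontal axis). The CD300 genes other than Cd300lb lie between 0.50 and 2.39, and the neighbouring genes between -0.43 and 0.55.

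The signalling partners were taken next, the adaptors and kinases through which activating CD300 receptors signal. Of 18 such genes 13 rose and 1 fell, beside 4.71% and 3.35% of all genes, with a median log2 fold change of 0.46. The adaptor Tyrobp had 145.9 ± 22.4 CPM (SD, n = 6) in responders and 100.7 ± 13.5 CPM (SD, n = 4) in non-responders, with no overlap (log2 fold change 0.54, SE 0.12, adjusted p = 0.0311). Fcer1g, the other adaptor chain, had 184.2 ± 34.1 and 112.9 ± 27.2 CPM, also without overlap (0.71, SE 0.17, adjusted p = 0.0372).

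Among the kinases, Lyn (log2 fold change 0.46) and Syk (0.51), which start the cascade at the adaptor, rose, as did the scaffold genes Lcp2 (0.67), Lat2 (0.60) and Grb2 (0.28), with adjusted p from 0.0263 to 0.0451. Downstream, the exchange factor gene Vav1 (0.50), the kinase gene Btk (0.45), the phospholipase gene Plcg2 (0.41) and the phosphoinositide 3-kinase subunit genes Pik3cd (0.46) and Pik3cg (0.36) passed too. Src, which many cell types express, fell by 0.20 on the log2 scale (SE 0.05, adjusted p = 0.0445). Fgr (0.44, adjusted p = 0.0863) and the adaptor gene Hcst (0.60, adjusted p = 0.154) did not pass in edgeR, and DESeq2 called Fgr (adjusted p = 0.0315) but not Hcst (adjusted p = 0.102). Most of these genes are expressed by leukocytes in general, and Ptprc moved with them, a part that was not tested.

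Inhibitory members act through phosphatases. Ptpn6 (SHP-1) was 147.2 ± 16.6 CPM (SD, n = 6) in responders and 101.5 ± 22.6 CPM (SD, n = 4) in non-responders, a log2 fold change of 0.54 (SE 0.14, adjusted p = 0.0408), and Inpp5d (SHIP-1) rose by 0.38 (SE 0.10, adjusted p = 0.0401). Their broadly expressed relatives Ptpn11 (-0.07, adjusted p = 0.284) and Inppl1 (-0.08, adjusted p = 0.440) did not pass. The list gave 2 of 4 higher and 0 lower, beside 4.71% and 3.35% of all genes.

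Known ligands and partners gave no call. Of 8 genes, 0 passed in edgeR or DESeq2, beside 8.06% and 17.6% of all genes. In edgeR 1 had an unadjusted p under 0.05, beside 4665 of 16041 genes over all. This was Tlr4, the partner of Cd300lb, at 52.5 CPM in responders and 43.8 CPM in non-responders (log2 fold change 0.26, adjusted p = 0.121). Il4ra, the partner of Cd300lf, had 0.13 (adjusted p = 0.294). Without non-responder 2 Tlr4 passed, at a log2 fold change of 0.38.

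Other receptors and bridging proteins for phosphatidylserine, the lipid that Cd300a and Cd300lf bind, were mixed. Of 17 genes 16 were tested, 1 rose and 1 fell, beside 4.71% and 3.35% of all genes, and the median log2 fold change was -0.01. Havcr2 (TIM-3) rose from 13.1 to 24.0 CPM (log2 fold change 0.87, SE 0.21, adjusted p = 0.0368). Mfge8, a secreted bridge between phosphatidylserine and integrins, fell from 225.4 ± 24.0 CPM (SD, n = 4) to 180.5 ± 7.23 CPM (SD, n = 6), with all 6 responders below all non-responders (-0.32, SE 0.06, adjusted p = 0.0264). The scavenger receptor gene Cd36 (0.69, adjusted p = 0.0590) and Pros1 (0.33, adjusted p = 0.0940) did not pass in edgeR but did in DESeq2 (adjusted p = 0.00940 and 0.0494), which called 4 of the list higher.

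Other paired receptors of myeloid cells were compared as the families most like CD300. Of 13 tested genes 6 rose and 0 fell in edgeR, beside 4.71% and 3.35% of all genes, and the median log2 fold change was 0.49. They were Sirpb1a (0.96), Treml4 (0.74), Sirpa (0.70), Pirb (0.64), Pilra (0.61) and Lilrb4a (0.49), with adjusted p from 0.0297 to 0.0453, and each had responders above all non-responders. These 6 held the inhibitory receptors Sirpa, Pirb, Pilra and Lilrb4a, but the largest fold changes were those of Sirpb1a and Treml4. Pilrb2 (0.49, adjusted p = 0.0571) and Pilrb1 (0.56, adjusted p = 0.0663) did not pass in edgeR but did in DESeq2 (adjusted p = 0.0132 and 0.0165), which called 9 of the 13. Whether inhibitory and activating receptors differed was not tested. Whether the CD300 members moved differently from these families was not tested.

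Calls in these partner lists hung on single tumors, as those of the members and those over all genes did. Of 59 tested genes over the lists of partners and related receptors, 24 were called, and 0 without responder 3, without non-responder 1 or without non-responder 4. In those edgeR fits 32 to 34 of them had an unadjusted p under 0.05. Over all genes that count ran from 3654 of 16285 (without non-responder 1) to 4106 of 16239 (without non-responder 4). Without responder 1, 2, 5 or 6 or without non-responder 3 the number of list genes called was 7, 3, 7, 13 and 5. Over all genes these fits called 553, 244, 412, 735 and 366. Without responder 3, non-responder 1 or non-responder 4 it was 17, 16 and 0 over all genes, beside 1293 of 16041 with all tumors.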

How the data were processed

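Bulk RNA-seq of 10 CT26 tumors was used, 6 responders and 4 non-responders by the response label, each sample being 1 tumor. Tumors are numbered within a group in accession order, which is only a name. The authors estimated transcript abundance with Kallisto and summed it to genes with tximport on the mouse genome (GRCm38), and deposited these estimated counts per gene, unscaled. The annotation release and the strand setting are not given in the sources used here. Of the values 45.05% were fractional, so counts were rounded for the tests. Genes were filtered with filterByExpr (minimum count 10, minimum total 15), scaled with TMM and tested two-sided with edgeR 4.0.16 (glmQLFit, glmQLFTest, R 4.3.3), with Benjamini-Hochberg adjustment over 16041 genes and a threshold of 0.05. The SE of a log2 fold change was its size divided by the square root of F. CPM used TMM-scaled totals, and log2 CPM a prior count of 2. The steps were tested on simulated data.

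Alternatives were DESeq2 size factors, DESeq2 1.42.0, limma-voom (limma 3.58.1) on unrounded counts, no low count filter, and leaving out each tumor. Genes were matched by the file's gene name, and 9633 rows without one by identifier to GENCODE (35912 identifiers matched), which also gave positions and lengths. Shared words of 31 bases were counted over its transcripts. Named genes were the members, the other CD300 genes, and in each list the genes called and the 2 with the smallest p otherwise. Of the genes this rule names, 2 are not reported here. In the other paired receptors, Lilr4b matched no gene name. The members and lists were chosen with earlier results of these data known. P-values measure the spread between tumors, and precision is limited by 4 tumors in the smaller group.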

Additional observations from a re-analysis of the deposited data

Results flagged for a closer look

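Within each group, the gap between the highest or lowest tumor and its nearest neighbour was divided by the group's whole range on the log2 CPM scale, for 94 gene and group combinations. Chance sets aside about 1 in 20 groups, or 4.7 of 94, and 7 were set aside. Responder 5 lay far above the other responders in Cd300c2, at 67.1 CPM against 40.6 to 47.9 CPM (gap over range 0.671). The same tumor stood apart in Tyrobp, at 189.5 CPM against 127.6 to 146.7 CPM (0.647), in Pik3cd, at 124.9 CPM against 89.4 to 100 CPM (0.665), in Pilrb2, at 20.1 CPM against 12.4 to 14.4 CPM (0.699), and in Pilrb1, at 23.5 CPM against 13.3 to 16.2 CPM (0.652). Non-responder 1 lay far below the other non-responders in Btk, at 12.1 CPM against 15.4 to 16.1 CPM (0.856), and in Pik3cd, at 54.2 CPM against 75.8 to 80.3 CPM (0.853). The 2 tumors are also the extremes of Ptprc, at 499.3 and 181.1 CPM.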

How the results depend on the processing

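The number of members called was 3 with DESeq2 size factors, without the low count filter and with limma-voom, but 5 with DESeq2, where Cd300c2 and Cd300ld were added. Limma-voom called Cd300ld in place of Cd300e. Over all genes DESeq2 called 2602 beside 1293, which is 17.6% of the genes it gave an adjusted p. In the partner lists DESeq2 called 31 genes beside 24. When single tumors were left out, members called ranged from 0 to 5, genes called from 0 to 1897 and genes called in the partner lists from 0 to 27. The fit with 0 genes called, without non-responder 4, had 4106 genes at an unadjusted p under 0.05 in edgeR. The median log2 fold change of the members stayed between 0.54 and 0.81 over the same fits, and 6 of 7 members were estimated higher in each fit run. The scalings to Ptprc and to macrophage markers, whose values stand beside the members, moved 11 of 14 member values by more than the spread between tumors. No named gene changed direction in the other fits run. No paired analysis was possible because the tumor numbers follow accession order and pair no responder with a non-responder.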
